A study of Mus musculus with 2 samples.

Results

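The complement components described here are 9 genes, chosen by name from the 18159 gene symbols of the mRNA-seq table: the C1q chain genes *C1qa*, *C1qb* and *C1qc*, the central components *C3*, *C4b* and *Cfb*, the inhibitor *Serping1*, and the receptors *C3ar1* and *C5ar1*. All 9 had a row and all 9 were above 0 FPKM (fragments per kilobase of transcript, scaled to the mapped fragments of the library, so a level corrected for length and depth) in both libraries. The source of RNA was tunica muscularis, the muscle wall freed from the mucosa, of the jejunum of mice of a C57BL/6 background at 15 days of age. The *Dnmt1*-KO mice carry homozygous floxed alleles of *Dnmt1*, the maintenance DNA methyltransferase, deleted by a Cre recombinase that is expressed together with eGFP under the *Myh11* promoter, so that deletion is directed to smooth muscle cells while other cells of the wall keep the gene. The *Dnmt1*-WT mice carry the same Cre and eGFP transgene. The strain label of both samples names the transgene together with the floxed allele, and a free-text note on both names the deletion, so the samples were told apart by title and genotype label. Each genotype was 1 library, made from several mice of both sexes in a way that the sources used here do not state, and no difference below can be set against a spread between replicates.

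Complement is a cascade of plasma proteins that tags particles for uptake, calls in leukocytes and can lyse membranes. The classical pathway starts when C1q binds immune complexes or dying cells and activates the proteases C1r and C1s, the lectin pathway starts when collectins or ficolins bind sugars, and the alternative pathway amplifies both through factor B and factor D. All 3 meet at C3, whose cleavage releases the anaphylatoxin C3a, and C5 cleavage releases C5a. The liver makes most plasma complement, but tissue macrophages are the main source of C1q, and stromal and fat cells make several of the other components locally.

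The level of *Dnmt1* itself was 11.58 FPKM in *Dnmt1*-WT, and it was lower in *Dnmt1*-KO, at 7.58 FPKM. Values above 0 FPKM were listed for 16632 and 17055 genes, they summed to 429698 and 460845 FPKM, and the lowest was 0.03 FPKM in both libraries. No read counts stand behind these values in the table, so the depth of each gene is unknown, and the receptor genes, at a few FPKM, are the least precise. Checked against the tissue label, none of 10 smooth muscle genes was at 0 and their sum was 17017 FPKM in *Dnmt1*-WT. All 10 were lower in *Dnmt1*-KO, where the sum was 12273 FPKM. Genes of enterocytes, cells of the mucosa, were present in both libraries, and 8 of 9 were higher in *Dnmt1*-KO, with sums of 331.1 and 699.7 FPKM. *Apoa4*, an apolipoprotein gene, made up most of them at 208.37 and 433.8 FPKM, and the part of mucosal RNA in the values below was not tested.

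All 9 complement components were higher in the *Dnmt1*-KO library, and for 7 of them the KO/WT ratio, the FPKM in *Dnmt1*-KO divided by that in *Dnmt1*-WT, was 2 or more, called at least doubled here. Over all 16102 genes above 0 FPKM in both libraries, 11.8% reached that ratio and 4.98% had a ratio of 0.5 or less, which no component had. The median ratio of the 9 genes was 3.39, and the median over all genes was 1.0035. On the log2 scale of FPKM + 0.1 these medians were 1.76 and 0.00496. The components fell into a group with ratios above 3, which were the C1q chain genes, *C4b* and both receptor genes, and a group with smaller ratios, *Cfb* at 2.57, *Serping1* at 1.80 and *C3* at 1.17. The smaller ratios included those of the most abundant genes, since *C3* and *Serping1* ranked first and second in both libraries. Summed over the 9 genes, the level went from 605.6 to 1090 FPKM, a ratio of 1.80, and without *C3* the ratio was 2.64.

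**Figure D1:**
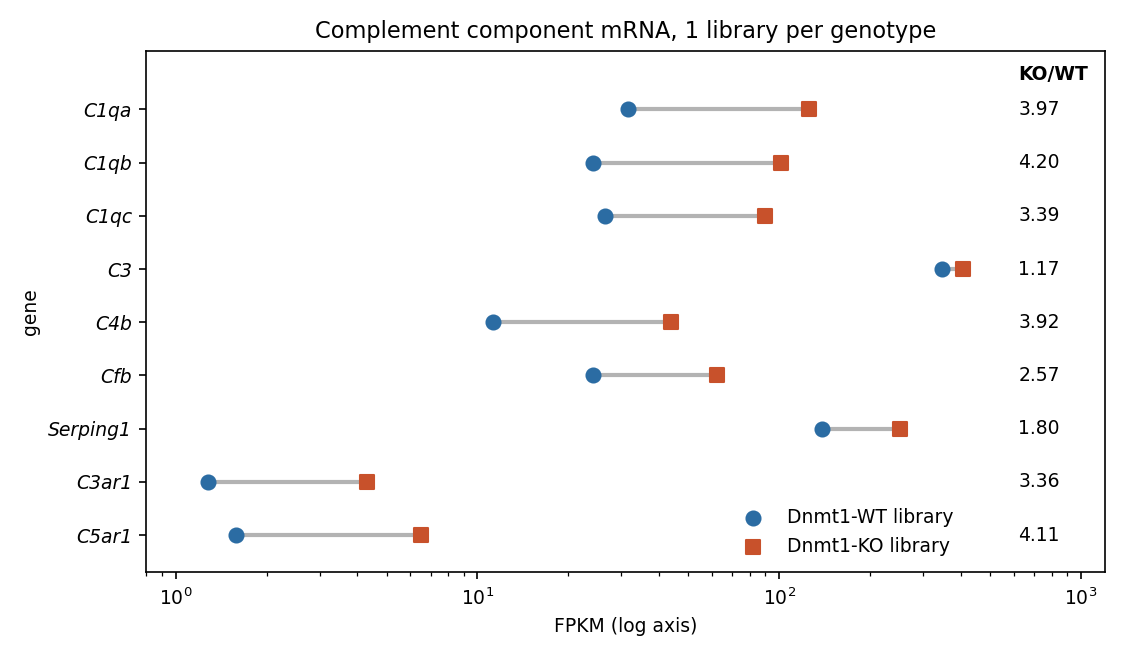
Level of each complement component in FPKM (log axis) in the *Dnmt1*-WT library (circles) and the *Dnmt1*-KO library (squares), with the ratio of the 2 values at the right. Every square lies to the right of its circle, and the distance is smallest for *C3*, with a ratio of 1.17, and largest for *C1qb*, with a ratio of 4.20.

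Large ratios are more common among weakly expressed genes, and the components were therefore also set against genes of their own level. Of the 5772 genes with a geometric mean of both libraries between 10 and 100 FPKM, 3.55% had a ratio of 2 or more and 2.36% one of 0.5 or less, and the 5 components in that range, the C1q chain genes, *C4b* and *Cfb*, were all at least doubled. Between 1 and 10 FPKM these shares were 10.8% and 4.08% of 6836 genes, and *C3ar1* and *C5ar1* were both at least doubled. At 100 FPKM or more they were 4.17% and 2.93% of 648 genes, and neither *C3* nor *Serping1* reached either ratio. Within these ranges the ratio of *C1qa* lay above that of 99.1% of genes, that of *Cfb* above 98.0%, that of *Serping1* above 93.2% and that of *C3* above 60.0%.

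**Figure D2:**
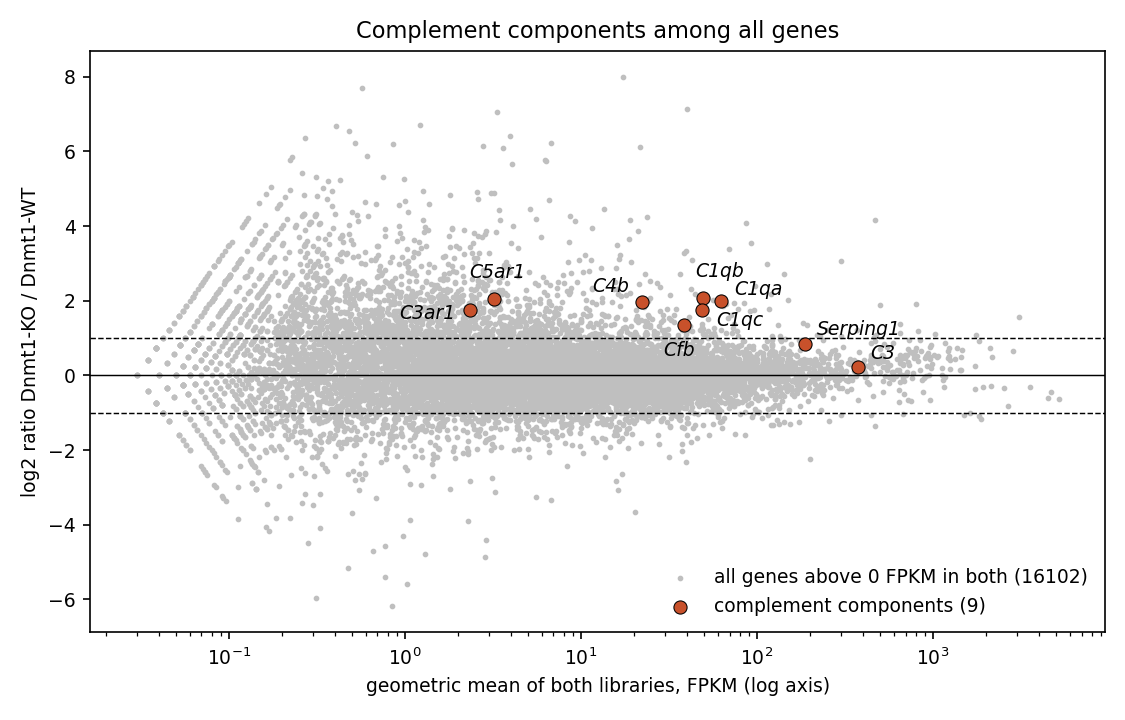
Log2 KO/WT ratio against the geometric mean of both libraries in FPKM (log axis) for the 16102 genes above 0 FPKM in both (grey) and the 9 complement components (red), with dashed lines at ratios of 2 and 0.5. *C1qa*, *C1qb*, *C1qc*, *C4b* and *Cfb* lie at the upper edge of the genes of their level, while *C3* lies within the cloud.

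The C1q chain genes encode the A, B and C chains of C1q, the recognition molecule of the classical pathway, and lie side by side on the minus strand of chromosome 4 (GRCm38), within 18.7 kb from 136880129 to 136898803. The level of *C1qa* was 31.57 FPKM in *Dnmt1*-WT and 125.26 FPKM in *Dnmt1*-KO, a ratio of 3.97. *C1qb* went from 24.19 to 101.51 FPKM, a ratio of 4.20, the highest of the 9 components. *C1qc* went from 26.50 to 89.91 FPKM, a ratio of 3.39. The genes of all 3 chains thus had similar ratios and similar levels in each library. The share of *C1qa* in the summed level of the chains was 38.4% in *Dnmt1*-WT and 39.6% in *Dnmt1*-KO, that of *C1qb* 29.4% and 32.1%, and that of *C1qc* 32.2% and 28.4%. The sum went from 82.26 to 316.7 FPKM, a ratio of 3.85. In the table, *C1qc* had 1 transcript variant in *Dnmt1*-WT and 2 in *Dnmt1*-KO, and GENCODE annotates 2. Of the 9 components, 7 had equal numbers of variants in both libraries. Over all genes with a variant in both, 12.5% had more in *Dnmt1*-KO and 13.6% had fewer.

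The protein-coding genes next to the C1q genes had lower ratios. Within 100 kb of the locus, 3 further protein-coding genes had values: *Ephb2*, an ephrin receptor gene, had a ratio of 1.37 (6.10 and 8.34 FPKM), *Epha8*, another ephrin receptor gene, 0.875 (1.28 and 1.12 FPKM), and *Zbtb40*, a zinc finger gene, 0.553 (2.93 and 1.62 FPKM).

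C1q in tissue is a product of macrophages, and macrophage genes differed between the libraries as well. All 12 genes of a macrophage list were higher in *Dnmt1*-KO, and 9 of them were at least doubled, beside 11.8% of all genes. Their median ratio was 2.66, and their sum went from 80.32 to 229.7 FPKM. Of a list of 8 leukocyte genes, 7 were at least doubled and *Cytip*, the eighth gene, was at 0.46 FPKM in *Dnmt1*-KO and listed at 0 in *Dnmt1*-WT. The sum of that list went from 40.3 to 128.3 FPKM. Within the macrophage list the ratios ran from 1.40 for *Mertk*, a receptor for dying cells, to 5.83 for *Msr1*, a scavenger receptor gene. Against *Csf1r*, which encodes the receptor for the macrophage growth factor CSF1 and had a ratio of 1.77, the level of *C1qa* was 2.13 times as high in *Dnmt1*-WT and 4.79 times as high in *Dnmt1*-KO. Against *Lyz2*, the lysozyme gene of macrophages, it was 1.13 and 1.11 times as high. The summed C1q level was 1.02 times the sum of the macrophage list in *Dnmt1*-WT and 1.38 times in *Dnmt1*-KO. *Lyz2* was the largest gene of that list, at 27.84 and 112.85 FPKM, so the list sums and these 2 values lean on it. The ratios of the C1q genes thus lay near that of *Lyz2* and above that of *Csf1r*. The part of macrophage number in the C1q ratios was not tested, and in RNA from whole tissue more cells of a type and more RNA per cell cannot be told apart.

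**Figure D3:**
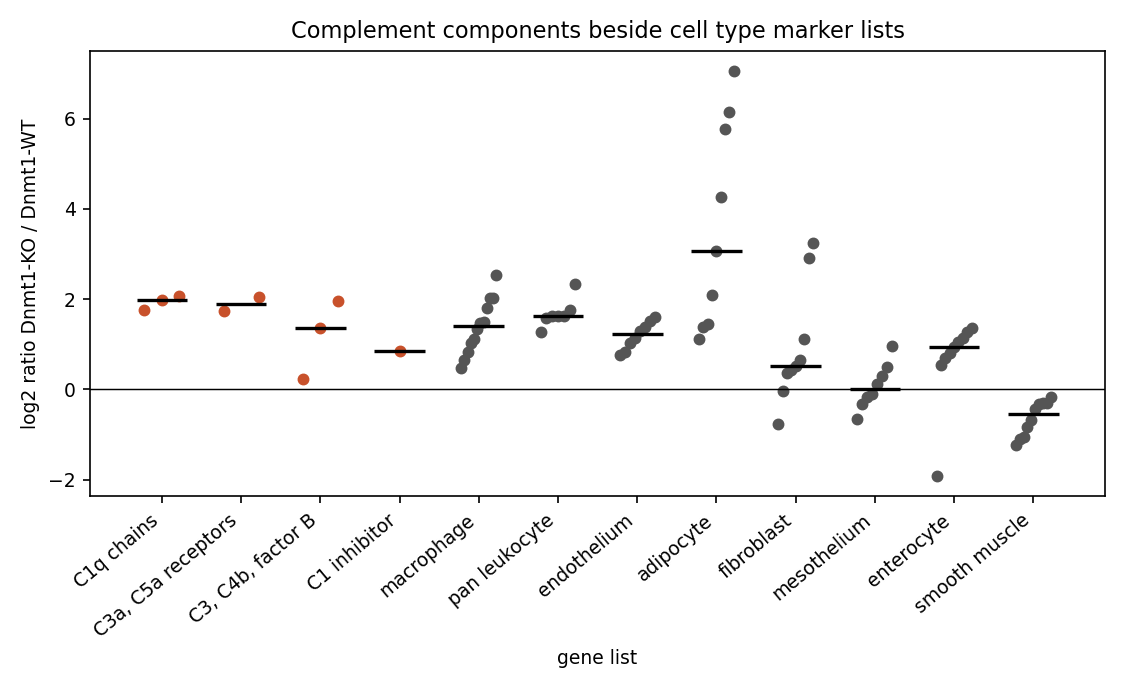
Log2 KO/WT ratio for each complement component, grouped by role (red), and for each gene of 8 cell type marker lists (grey), with a bar at the median of each group and genes at 0 FPKM in a library left out. The C1q chain and receptor genes lie within the range of the macrophage list, whose ratios run from 1.40 to 5.83, but above its median of 2.66. Every smooth muscle gene lies below 0.

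*C4b* encodes complement C4, which C1s cleaves to build the classical C3 convertase. Its level went from 11.22 FPKM in *Dnmt1*-WT to 43.97 FPKM in *Dnmt1*-KO, a ratio of 3.92, close to those of the C1q genes. The gene lies on the minus strand of chromosome 17 from 34728380 to 34743882, in the class III region of the MHC, and has a near-identical copy, *C4a*. Over 5378 bases their transcripts are 95.9% identical, so the split of reads between both copies is uncertain. The level of *C4a* was 0.06 FPKM in *Dnmt1*-KO and listed at 0 in *Dnmt1*-WT, and the ratio of the summed copies was also 3.92.

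*Cfb*, on the minus strand of chromosome 17 from 34856374 to 34862518, encodes factor B, the protease of the alternative C3 convertase. Its level was 24.19 FPKM in *Dnmt1*-WT, the same as that of *C1qb*, and 62.26 FPKM in *Dnmt1*-KO. Its ratio of 2.57 was lower than those of *C1qb* and *C4b*. Of the 2825 exon bases of *Cfb*, 2246, or 79.5%, are shared with *Gm20547*, a gene model on the same strand whose level was not analysed here, and the *Cfb* values are uncertain to that extent. No other component shares exon bases with another annotated gene.

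*C4b* and *Cfb* lie in the same gene-dense region, but the genes around them mostly kept their level. Over 15 protein-coding genes within 100 kb that are not complement genes, the median ratio was 0.996. Of these, only *Hspa1b*, a heat shock gene with a near-identical copy of its own, was at least doubled (16.61 and 56.86 FPKM). Only *Cyp21a1*, the steroid 21-hydroxylase gene, was at most halved (0.24 and 0.10 FPKM). Among all genes above 0 FPKM in both libraries, 11.8% were at least doubled and 4.98% at most halved. *C2*, the factor B paralog of the classical pathway that follows *Cfb* directly, had a ratio of 1.40 (21.44 and 30.05 FPKM). The level of *Cfb* relative to *C2* was 1.13 in *Dnmt1*-WT and 2.07 in *Dnmt1*-KO, and that of *C4b* relative to *C2* was 0.523 and 1.46.

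**Figure D4:**
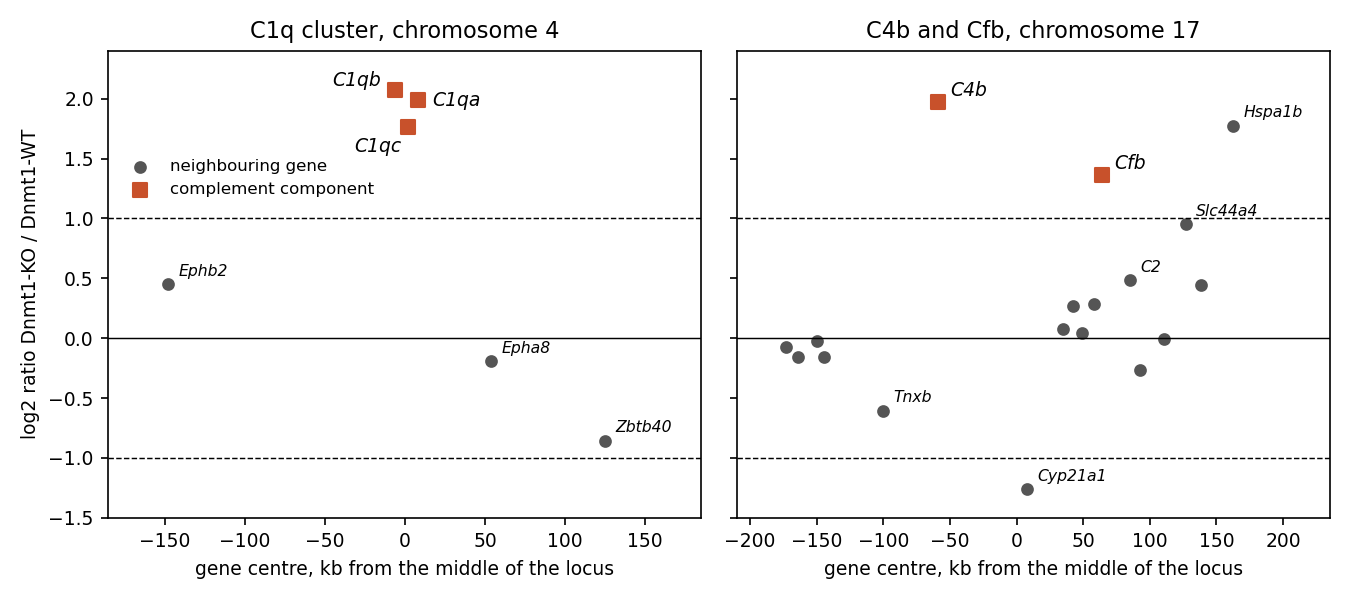
Log2 KO/WT ratio for complement components (squares) and the protein-coding genes within 100 kb (circles), against the distance of the gene's centre from the middle of the locus in kb, with dashed lines at ratios of 2 and 0.5. The C1q genes stand above *Ephb2*, *Epha8* and *Zbtb40*, and around *C4b* and *Cfb* only *Hspa1b* also lies above the upper line.

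*C3* encodes the component at which all pathways meet and was by far the most abundant of the 9 genes. Its level was already 345.95 FPKM in *Dnmt1*-WT and reached 405.33 FPKM in *Dnmt1*-KO, a ratio of 1.17, which was higher than that of 65.4% of all genes above 0 FPKM in both libraries. The gene lies on the minus strand of chromosome 17 from 57203970 to 57228136, far from *C4b* and *Cfb*. Because *C3* differed little, its margin over the components that act on it narrowed. *C3* was 30.8 times as high as *C4b* in *Dnmt1*-WT and 9.22 times in *Dnmt1*-KO, and 14.3 and 6.51 times as high as *Cfb*. Of the summed level of the 9 genes, *C3* made up 57.1% in *Dnmt1*-WT and 37.2% in *Dnmt1*-KO. Mesothelial and fibroblast genes, from cells of the serosa and stroma, stood at a summed 411.7 and 3323 FPKM in *Dnmt1*-WT and at 500.4 and 5126 FPKM in *Dnmt1*-KO, with 4 of 8 and 7 of 9 genes higher. The median ratio of the mesothelial list was 1.01, and its sum differed through *Krt19*, a keratin gene that epithelia also express, at 96.08 and 188.37 FPKM. The hepatocyte list was low, at 6.29 and 14.11 FPKM in sum over 9 genes. All 7 of them above 0 FPKM in both libraries were higher in *Dnmt1*-KO. *Apob*, an apolipoprotein gene, was the largest, at 4.08 and 5.3 FPKM, and *Alb*, the albumin gene, was at 0.21 and 0.85 FPKM. All 8 genes of an endothelial list were higher in *Dnmt1*-KO, with sums of 70.64 and 161.9 FPKM. The part of these cells in the *C3* values was not tested.

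*Serping1* encodes C1 inhibitor, the serpin that inactivates C1r, C1s and the lectin pathway proteases. It lies on the minus strand of chromosome 2 from 84765387 to 84775444. Its level was 139.14 FPKM in *Dnmt1*-WT and 251.04 FPKM in *Dnmt1*-KO, a difference of 111.9 FPKM, which is the largest of the 9 in absolute terms although its ratio of 1.80 was the second lowest. Of the proteases it acts on, *C1ra* and *C1s1* had higher ratios, while the lectin pathway protease gene *Masp1* had a lower one, 0.718. *C1ra* went from 18.99 to 44.15 FPKM, a ratio of 2.32, and *C1s1* from 37.43 to 76.33 FPKM, a ratio of 2.04. *Serping1* was therefore 7.33 times as high as *C1ra* in *Dnmt1*-WT and 5.69 times in *Dnmt1*-KO, and 3.72 and 3.29 times as high as *C1s1*. The ratios of *Serping1*, *C1ra* and *C1s1* lay below those of the C1q genes, with which their products form or control the C1 complex.

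*C3ar1* and *C5ar1* encode the receptors through which C3a and C5a act on macrophages, neutrophils and mast cells. They were the least abundant of the 9 genes. *C3ar1*, on chromosome 6 from 122847138 to 122856161, went from 1.28 FPKM in *Dnmt1*-WT to 4.30 FPKM in *Dnmt1*-KO, a ratio of 3.36. *C5ar1*, on chromosome 7 from 16246743 to 16259540, was at 1.58 and 6.50 FPKM, a ratio of 4.11, and had 1 transcript variant in *Dnmt1*-WT and 2 in *Dnmt1*-KO. The level of *C3ar1* was far below that of *C3*, the gene of its ligand's precursor, in both libraries. Relative to *Csf1r*, whose ratio was 1.77, *C3ar1* went from 0.0865 to 0.164 and *C5ar1* from 0.107 to 0.248. The ratio of *Lyz2*, 4.05, was above that of *C3ar1* and close to that of *C5ar1*. Ratios of the 12 macrophage genes ran from 1.40 to 5.83, so such comparisons depend on the gene used. Neutrophil genes were low in both libraries, with a list sum of 8.11 FPKM in *Dnmt1*-WT and 12.96 FPKM in *Dnmt1*-KO over 7 genes and *Mpo*, the myeloperoxidase gene, listed at 0 in both. Most of that sum in *Dnmt1*-WT was *Camp*, the cathelicidin gene, at 6.84 and 5.71 FPKM, while *Retnlg* went from 0.67 to 4.06 FPKM and *S100a8*, a calprotectin subunit gene, was listed at 0 in *Dnmt1*-WT and had 2.00 FPKM in *Dnmt1*-KO. The sum of 7 mast cell genes was 0.16 FPKM in *Dnmt1*-WT, and 5 of them were listed at 0 there. In *Dnmt1*-KO it was 4.99 FPKM, with *Tpsb2*, a tryptase gene, at 2.08 FPKM and *Cma1*, the chymase gene, at 1.55 FPKM. The part of any of these cells in the receptor ratios was not tested.

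DNMT1 maintains methylation at CpG dinucleotides, and the RefSeq promoter sequences of the components, from 250 bases before to 50 bases after the start in GRCm38.p6, were therefore searched for CG and for letters bound by factors known from complement genes. A promoter was matched for 5 of the 9 genes: *C1qb*, *C1qc*, *C3*, *C3ar1* and *C5ar1*. All 5 are shown, since they include 4 genes with ratios above 3 beside *C3*, whose ratio was the lowest. The 250 bases before the start are given 5′ to 3′ on the gene's strand, which is minus for all of them, at chr4:136886201-136886450, chr4:136892915-136893164, chr17:57228137-57228386, chr6:122856158-122856407 and chr7:16259339-16259588 in that order. GENCODE starts *C1qc* at 136893065, *C3ar1* at 122856161 and *C5ar1* at 16259540 on the minus strand, inside these windows. Part of each of these windows thus lies within the annotated gene, most of it for *C1qc* and *C5ar1*. Capitals mark CG and every match to a motif searched.
C1qb: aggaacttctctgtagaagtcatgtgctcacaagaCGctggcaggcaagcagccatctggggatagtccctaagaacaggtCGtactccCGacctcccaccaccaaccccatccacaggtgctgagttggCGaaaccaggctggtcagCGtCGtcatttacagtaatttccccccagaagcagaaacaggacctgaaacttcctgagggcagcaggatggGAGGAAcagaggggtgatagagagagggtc
C1qc: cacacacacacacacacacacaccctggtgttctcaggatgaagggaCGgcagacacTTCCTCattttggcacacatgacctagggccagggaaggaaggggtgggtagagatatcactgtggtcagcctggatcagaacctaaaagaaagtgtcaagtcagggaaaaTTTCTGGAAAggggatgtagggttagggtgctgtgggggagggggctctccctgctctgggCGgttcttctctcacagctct
C3: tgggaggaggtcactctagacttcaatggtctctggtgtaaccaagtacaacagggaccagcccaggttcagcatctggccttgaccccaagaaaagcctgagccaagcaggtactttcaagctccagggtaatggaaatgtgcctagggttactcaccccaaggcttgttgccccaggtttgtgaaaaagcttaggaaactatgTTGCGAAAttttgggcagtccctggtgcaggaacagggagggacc
C3ar1: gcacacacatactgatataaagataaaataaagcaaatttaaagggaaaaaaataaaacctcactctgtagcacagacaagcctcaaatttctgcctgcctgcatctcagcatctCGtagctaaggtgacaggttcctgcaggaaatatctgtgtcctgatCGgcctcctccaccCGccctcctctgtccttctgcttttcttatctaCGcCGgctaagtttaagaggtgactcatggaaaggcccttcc
C5ar1: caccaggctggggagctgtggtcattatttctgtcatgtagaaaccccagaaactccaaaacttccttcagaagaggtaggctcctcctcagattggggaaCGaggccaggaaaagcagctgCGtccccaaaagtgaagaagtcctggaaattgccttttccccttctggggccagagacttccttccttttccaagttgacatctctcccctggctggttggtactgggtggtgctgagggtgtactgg
None of the 5 is rich in CG. The 300-base window of *C1qb* holds 6 CG, that of *C3ar1* 5 and those of *C1qc*, *C3* and *C5ar1* 3 each, while the median over 32851 promoters was 7, with quartiles of 3 and 20. The letters GAGGAA, the core bound by the myeloid factor PU.1, occur once in *C1qb*, at position -30 from the start, and once on the opposite strand in *C1qc*, at position -193, and 28.3% of all promoters hold them. A STAT motif, TTNCNNGAA, occurs in *C1qc* on both strands of the same stretch and in 13% of promoters. A C/EBP motif, TTGCNNAA, occurs in *C3*, where it includes a CG, and in 10.8% of promoters. Neither strand of the 5 windows holds an interferon-stimulated response element (GAAA, any 2 bases, GAAA, in 3.44% of promoters), an NF-kB motif (GGGAA, any base, T, any base, CC, in 1.19%) or TTGCGCAA (a case of the C/EBP motif, 0.183%). Matches describe the letters of these windows only, and CpG methylation was not analysed here.

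The rest of the complement system was followed through a list of 50 other genes, of which 39 had a row and the other 11 were not analysed here. Among the 34 above 0 FPKM in both libraries, 24 were higher and 10 lower in *Dnmt1*-KO, 11 were at least doubled and 2 at most halved, beside 11.8% and 4.98% of all genes, and the count at most halved is near that background. The median log2 ratio of FPKM + 0.1 over the 39 genes was 0.49, lower than that of the 9 components, and it moved to 0.74 with a pseudocount of 0.01 and to 0.12 with a pseudocount of 1. Many of these genes are hardly expressed in the tissue. Of the 24 that reached 1 FPKM in at least 1 library, 9 were at least doubled and 2 at most halved. Among those doubled, *Fcna*, *Itgam*, *Itgax* and *Itgb2* reached 1 FPKM only in *Dnmt1*-KO. The filter thus favours genes that are high in that library, and the share of all genes under it is not given here.

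Of 6 classical pathway genes, 4 were above 0 FPKM in both libraries, with a median ratio of 1.72. Of these 4, 2 were at least doubled, *C1ra* and *C1s1*, beside 11.8% of all genes above 0 FPKM in both. Besides *C1ra*, *C1s1* and *C2*, given above, *C1s2* was at 0.05 and 0.07 FPKM and *C1rb* was at 0.55 FPKM in *Dnmt1*-KO and listed at 0 in *Dnmt1*-WT. In the alternative pathway, *Cfd*, which encodes factor D, the protease that cleaves factor B and is made by fat cells, went from 2.61 to 182.62 FPKM, a ratio of 70.0. It was below *Cfb* in *Dnmt1*-WT and above it in *Dnmt1*-KO. All 10 genes of an adipocyte list were higher too, with a sum of 164.8 FPKM in *Dnmt1*-WT and 1160 FPKM in *Dnmt1*-KO, and their part in the *Cfd* value was not tested. *Cfp*, which encodes properdin, the stabiliser of the alternative convertase and a product of leukocytes, went from 6.41 to 19.64 FPKM.

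Genes of the lectin pathway went in different directions. *Fcna*, which encodes ficolin A, a lectin of macrophages, went from 0.82 to 14.65 FPKM, a ratio of 17.9. *Colec10*, which encodes collectin liver 1, went from 47.08 to 5.62 FPKM, a ratio of 0.119, the lowest of all complement genes with a ratio. *Masp1*, a lectin pathway protease gene, was at 7.26 and 5.21 FPKM, and *Colec12*, a membrane collectin gene, at 30.22 and 22.76 FPKM. Another protease gene, *Masp2*, was at 0.05 FPKM in *Dnmt1*-KO and listed at 0 in *Dnmt1*-WT. Genes of the terminal pathway, whose products form the membrane attack complex, were low apart from *C7*, which went from 13.93 to 6.31 FPKM, a ratio of 0.453.

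Regulators showed no common direction beside the ratio of *Serping1*. *Cd55*, which encodes the decay accelerator of C3 convertases, went from 6.67 to 13.52 FPKM, a ratio of 2.03. *Cd59a*, which encodes the membrane inhibitor of the attack complex and was the most abundant membrane regulator, went from 257.2 to 174.18 FPKM, a ratio of 0.677. *Cr1l*, the rodent membrane regulator Crry, was at 30.61 and 31.27 FPKM. *Clu*, clusterin, went from 44.14 to 82.04 FPKM, a ratio of 1.86. The C4b-binding protein gene *C4bp* was at 0.13 FPKM in *Dnmt1*-KO and listed at 0 in *Dnmt1*-WT.

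Among receptors, the genes of the leukocyte integrins that bind C3 fragments had high ratios at low levels. *Itgam* went from 0.87 to 2.92 FPKM, *Itgax* from 0.07 to 1.20 FPKM and their shared partner *Itgb2* from 0.71 to 4.96 FPKM. The ratio of *Itgam*, 3.36, matched that of *C3ar1*. *C5ar2*, which lies next to *C5ar1* and encodes a second C5a receptor, was at 0.27 and 0.65 FPKM. *Vsig4*, the complement receptor gene of resident macrophages, had 0.05 FPKM in *Dnmt1*-WT and was listed at 0 in *Dnmt1*-KO. *Calr* and *C1qbp*, whose products bind C1q but which cells of all kinds express, had ratios of 0.969 and 1.09.

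**Figure D5:**
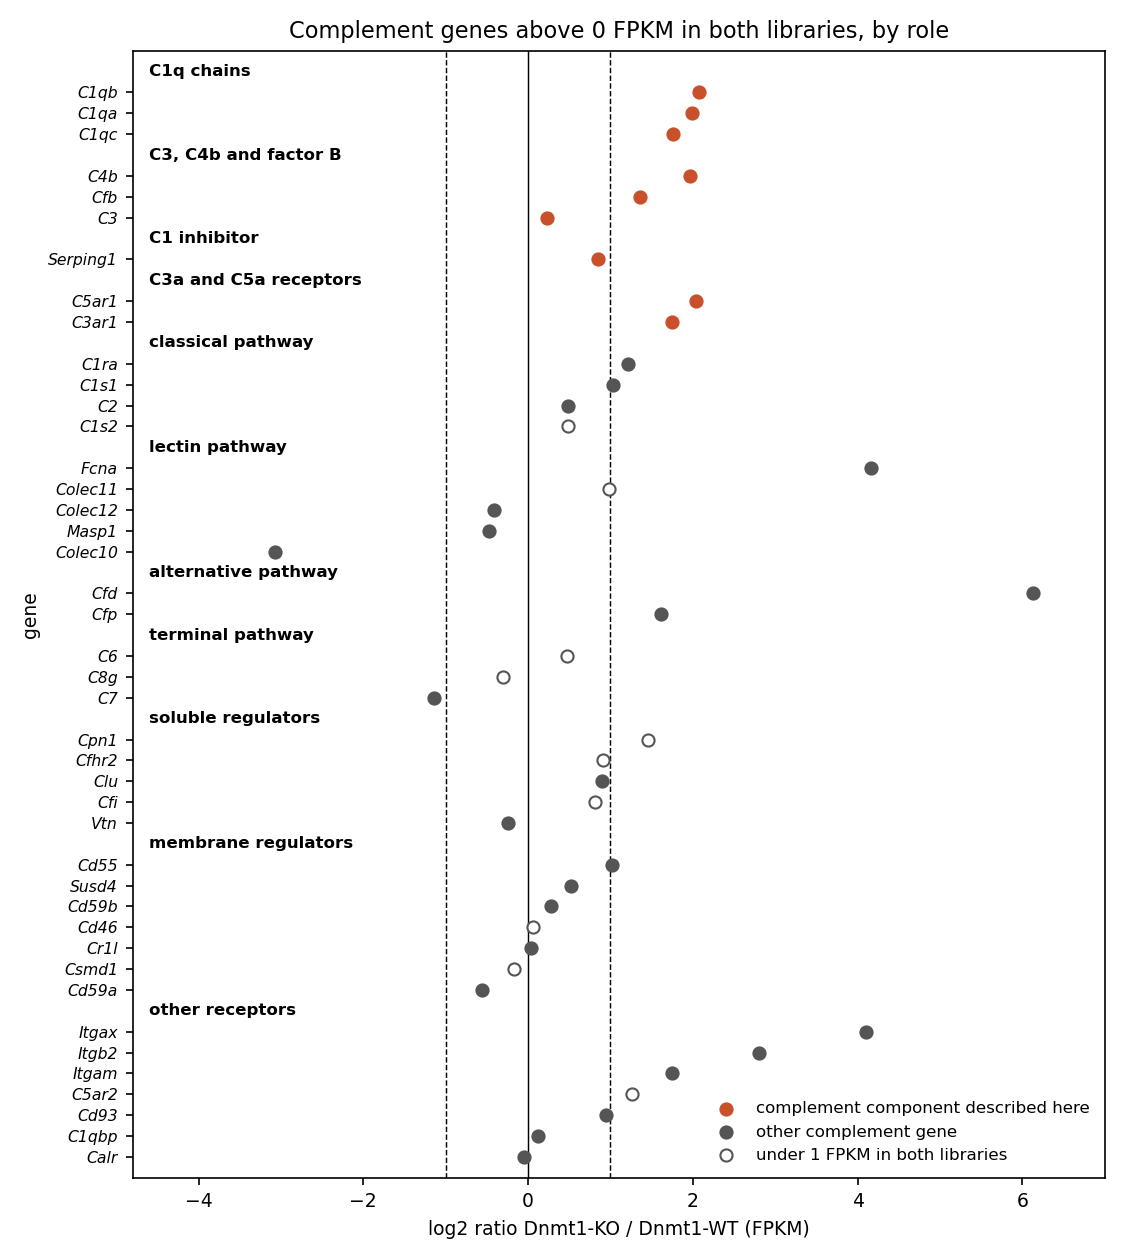
Log2 KO/WT ratio for the 9 complement components (red) and 33 of the 34 other complement genes above 0 FPKM in both libraries (grey, open where under 1 FPKM in both), grouped by role, with dashed lines at ratios of 2 and 0.5. *Cfd* has the highest ratio, 70.0, *Colec10* the lowest, 0.119, and *C7* is the only other gene with a ratio of 0.5 or less.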

How the data were processed

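RNA of the jejunal tunica muscularis was isolated with mirVana reagents and sequenced from TruSeq RNA libraries, 1 per genotype. The authors deposited FPKM per gene symbol, the number of transcript variants per library and a KO/WT fold, which is their own comparison and was not used. The submitters' processing notes name TopHat 1.4.1, Cufflinks 2.0.2 and mm10. The annotation behind the FPKM is not given in the sources used here.

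With 1 library per genotype no test was made. Plain ratios of FPKM were formed over genes above 0 FPKM in both libraries, with at least doubled meaning a ratio of 2 or more and at most halved one of 0.5 or less. Medians on the log2 scale used FPKM + 0.1. Components and lists were chosen with earlier results of these data known. Named genes were the 9 components, genes of the complement and marker lists, *Dnmt1*, and the 3 genes nearest in level to *C1qa*, *C3*, *Serping1* and *C3ar1*. Of the complement list, 1 gene enters the counts but is not reported here. Neighbouring genes fall outside this rule and were added after values were seen. *Adgre1* has its older symbol in the table.

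Positions, exons and transcripts came from GENCODE M21 (GRCm38) and promoters from RefSeq (GRCm38.p6). Protein sequences, planned as a further description, were not analysed here. Transcripts were compared with BLAST 2.17.0, keeping matches of at least 100 bases and 95% identity. Counting past a fold was tested on simulated data. Python 3.11.15, numpy 2.4.6, pandas 2.3.3 and matplotlib 3.10.9 were used. Alternatives concerned scaling, pseudocount, a filter at 1 FPKM, the fold counted and the sum of *C4b* and *C4a*. Depth per gene is unknown and no interval was computed.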

Additional observations from a re-analysis of the deposited data

How the results depend on the processing

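Among the 9 alternatives, the count of components at least doubled was 7 under each scaling, pseudocount and filter and with *C4b* and *C4a* summed. Counting ratios of 1.5 or more instead gave 8 components, and counting ratios of 3 or more gave 6. No ratio of a component fell below 1 under any alternative. The range was 1.09 to 1.20 for *C3*, 1.68 to 1.84 for *Serping1* and 3.91 to 4.29 for *C1qb*. It was 2.32 to 3.43 for *C3ar1* and 2.91 to 4.20 for *C5ar1*. A pseudocount of 1 gave the lowest value of both receptor genes, so that neither then had a ratio above 3. The median log2 ratio of the components was 1.66 with FPKM-sum scaling, 1.79 with median centring, 1.79 with upper-quartile scaling and 1.54 with a pseudocount of 1. That of the other complement genes was 0.41 with FPKM-sum scaling, 0.51 with median centring, 0.52 with upper-quartile scaling, 0.74 with a pseudocount of 0.01, 0.12 with a pseudocount of 1 and 0.50 over genes that reached 1 FPKM. With a ratio of 3 or more counted, 6 of the other complement genes passed in place of 11. FPKM-sum scaling lowers every log2 ratio by 0.10, and the other scalings raise it by 0.03. No paired analysis was possible because each genotype has 1 library. Without read counts, values of a few FPKM such as those of *C3ar1* and *C5ar1* carry the least precision.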

Other observations

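Among 12749 genes whose level reached 1 FPKM in each library, components left out, the genes nearest in level to *C1qa* by the distance on the log2(FPKM + 1) scale over the 2 libraries were *Plac8*, at 33.98 and 122.9 FPKM, *Ctgf*, which encodes a matricellular growth factor, at 34.24 and 129.64 FPKM, and *Lyz2*, at 27.84 and 112.85 FPKM. Nearest to *C3ar1* were *Hmha1* (1.23 and 4.28 FPKM), *Nr1h3* (1.3 and 4.42 FPKM), which encodes the nuclear receptor LXR alpha, and *Nckap1l* (1.25 and 4.41 FPKM), which encodes an actin regulator of blood cells. Nearest to *C3* were the collagen gene *Col4a2* (345.32 and 418.45 FPKM), *Rpl31* and *Tceb2*, and nearest to *Serping1* were *Nme2* (134.52 and 257.52 FPKM), *Uqcc2* and *Myl12a*. With 2 libraries this likeness rests on 2 values a gene.

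Some neighbours of the single-gene loci were at least doubled, beside 11.8% of all genes above 0 FPKM in both libraries. The count near *Serping1* is near that share, and each locus has few neighbours. Of 5 protein-coding genes with a ratio within 100 kb of *C3ar1*, 2 were at least doubled, *Clec4a1* (2.81 and 6.03 FPKM) and *Clec4a3* (1.02 and 4.18 FPKM), which encode C-type lectin receptors of myeloid cells. Of 5 near *C3*, 2 were at least doubled, *Tnfsf14* (0.08 and 0.31 FPKM) and *Vav1* (0.66 and 2.26 FPKM), a signalling gene of blood cells. Of 9 near *Serping1*, only *Rtn4rl2* was at least doubled (0.81 and 4.62 FPKM). None of 6 near *C5ar1* that are not complement genes was, with ratios from 0.711 to 1.79. These genes were named after their values were seen.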
